A study of Mus musculus with 20 samples.

Results

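The genes of MHC class I presentation were read here as 10 members chosen by name: the heavy chain genes H2-K1, H2-D1 and H2-T23, the light chain gene B2m, the transporter subunits Tap1 and Tap2, the loading factor Tapbp, the immunoproteasome subunits Psmb8 and Psmb9, and the transactivator Nlrc5. All 10 were found among the 55573 genes counted, and all 10 passed the filter on low counts that left 16509 genes for testing. The measurements came from 20 bulk RNA-seq libraries of C57BL/6 mouse bone marrow, and the study asked what distinguishes stem cells that carry the leptin receptor (Lepr) on their surface. Cells lacking lineage antigens and positive for Sca-1 and c-Kit were sorted as haematopoietic stem cells (HSC, CD150+ CD48-) or multipotent progenitors (MPP, CD150- CD48-), and each of these by an antibody to Lepr. Each cell type thus gave a Lepr+ and a Lepr- group, with 5 libraries in each of the 4 groups. Each library was made from 1000 to 8000 cells pooled from 2 mice aged 7 to 9 weeks, and the labels name no genotype, transgene or treatment beyond the strain. The p-values of the fit on group alone therefore measure the spread between libraries of pooled mice and take no account of replicate number. With the replicate number as a block, they measure the spread left after it. In such bulk samples, fewer cells of a type and less RNA per cell cannot be told apart.

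Nearly every nucleated cell is known to use this pathway. Proteins are cut by the proteasome, whose catalytic subunits can be replaced by the interferon-inducible immunoproteasome subunits, and the transporter moves the peptides into the endoplasmic reticulum. There the loading complex fits them onto a heavy chain paired with beta-2-microglobulin, and the trimer travels to the surface, where CD8 T cells and natural killer cells read it. NLRC5 is known to act with factors bound at class I promoters, and interferons raise the whole set through IRF proteins and other factors.

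The libraries held 9532993 to 31589794 counts in genes, with 14972 to 22524 genes detected. The 3 libraries that stood apart most were replicate 4 of Lepr+ MPP, replicate 5 of Lepr+ HSC and replicate 5 of Lepr+ MPP, whose mean correlations with the rest of their group were 0.815, 0.837 and 0.858. Lepr transcripts stood at 0.076 to 9.36 CPM (counts scaled to library size) in Lepr+ HSC against 0 to 0.165 CPM in Lepr- HSC, and at 0.261 to 38.8 CPM in Lepr+ MPP compared with 0 to 0.767 CPM in Lepr- MPP, so the groups overlapped in both pairs. Slamf1, the gene of the sort antigen CD150, was higher in Lepr- HSC than in Lepr- MPP (log2 fold change 3.18, adjusted p = 0.0378 in edgeR's quasi-likelihood test), and Flt3, a marker of progenitors, was lower (-4.57, adjusted p = 0.0011). Hlf and Ly6a, known as stem cell genes, were lower in Lepr- HSC than in Lepr- MPP (-1.42 and -1.27). For Hlf this goes against the label. Of 8 listed stem and progenitor genes, 1 passed as higher in Lepr- HSC and 3 as lower, where 2.73% of all genes passed. Their median log2 fold change was -0.61, and the lowest, -2.58, belonged to neither Hlf nor Ly6a. The list mixes genes of stem cells and of progenitors, so its counts and median do not measure stem cell identity.

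Of the 10 members, 8 lie on mouse chromosome 17 within the major histocompatibility complex, and the promoters of 8 members were in the RefSeq table used here (GRCm38.p6, 250 bases before to 50 bases after each start). Tap2 and Nlrc5 were not in it. The 200 bases before the start are shown for the genes whose promoters share spaced motifs, H2-K1 (chr17:34000348-34000547, minus strand), H2-D1 (chr17:35262894-35263093, plus strand) and B2m (chr2:122147487-122147686, plus strand). The 225 bases between the opposed starts of Tap1 and Psmb9 (chr17:34187331-34187555, plus strand) are shown because they serve both genes. Capitals mark GGGGATTCC (the class I enhancer A, a motif of NF-kB), GAAANNGAA (a core of the interferon-stimulated response element), TGACG (a core of the cyclic AMP element, as in the X2 box) and CCAAT (the Y box, which reads ATTGG on the other strand).
H2-K1: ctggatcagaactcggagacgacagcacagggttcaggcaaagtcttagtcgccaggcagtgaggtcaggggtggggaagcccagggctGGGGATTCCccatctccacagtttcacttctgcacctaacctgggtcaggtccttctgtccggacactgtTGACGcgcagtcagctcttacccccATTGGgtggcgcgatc
H2-D1: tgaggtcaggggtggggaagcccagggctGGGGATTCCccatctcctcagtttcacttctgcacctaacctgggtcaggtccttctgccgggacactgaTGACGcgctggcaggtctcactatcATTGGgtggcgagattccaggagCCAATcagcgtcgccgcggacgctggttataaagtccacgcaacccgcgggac
B2m: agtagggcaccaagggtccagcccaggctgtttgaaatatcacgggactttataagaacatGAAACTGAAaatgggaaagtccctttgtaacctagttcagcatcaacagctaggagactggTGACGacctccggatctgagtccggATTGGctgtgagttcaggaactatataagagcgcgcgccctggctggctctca
Tap1-Psmb9: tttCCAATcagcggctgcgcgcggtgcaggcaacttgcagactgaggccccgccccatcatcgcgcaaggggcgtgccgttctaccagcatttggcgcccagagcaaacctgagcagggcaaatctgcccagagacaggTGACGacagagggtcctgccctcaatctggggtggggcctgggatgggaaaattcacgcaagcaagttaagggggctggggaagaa

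GGGGATTCC was found in 2 of the 8 member promoters, H2-K1 and H2-D1, and in 0.25% of 32851 RefSeq promoters, counting both strands. Aligned on it without gaps, the H2-K1 and H2-D1 windows were identical at 73.3% of 240 bases. Their Y boxes begin at -16 and 8 from the start in H2-K1, and at -76 and -53 in H2-D1. The spacing thus differs, so the bases beyond it were compared out of register, which lowers the identity. An alignment with gaps was not run. H2-K1, H2-D1 and B2m each held TGACG followed by ATTGG with 25 bases between their first letters, a spacing chosen after the sequences were seen and present in 0.0944% of all promoters. CCAAT was in 7 of the 8 windows (37.4% of all promoters), TGACG in 5 of 8 (20.8%), and GAAANNGAA in 2 of 8, H2-T23 and B2m (8.56%). GGGCGG, the GC box, was in the windows of Tap1, Tapbp and Psmb9 (35.7% of all promoters). Each is a match of exact letters and shows no binding, and a window without a match can still hold a variant of that element. The windows of Tap1 and Psmb9 overlap by 275 bases on opposite strands, so the matches they share are the same letters.

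B2m, H2-D1 and H2-K1 were among the most abundant transcripts in the mean over all libraries. On CPM per kilobase of exon, averaged over the 20 libraries, B2m reached 2580 and ranked 9 of 16502 genes, followed by H2-D1 at 1255 (rank 23) and H2-K1 at 967.8 (rank 28). H2-D1 exceeded H2-K1 per kilobase in each library, by 1.06 to 1.64 times. H2-T23, which encodes the nonclassical molecule Qa-1, stood far below them at 157 (rank 312). The peptide supply genes came next, Psmb8 at 105.3, Tapbp at 98.7 and Psmb9 at 78.29, with Tap2 at 53.14 and Tap1 at 53.02. Psmb8 and Tapbp overlapped across libraries, and Tap1 and Tap2 changed order between cell types. Nlrc5 was the least abundant at 6.538 CPM per kilobase (rank 6536), and its CPM spanned 10.09-fold between libraries, the widest range of the members. H2-K1 spanned 1.589-fold, the narrowest.

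**Figure D1:**
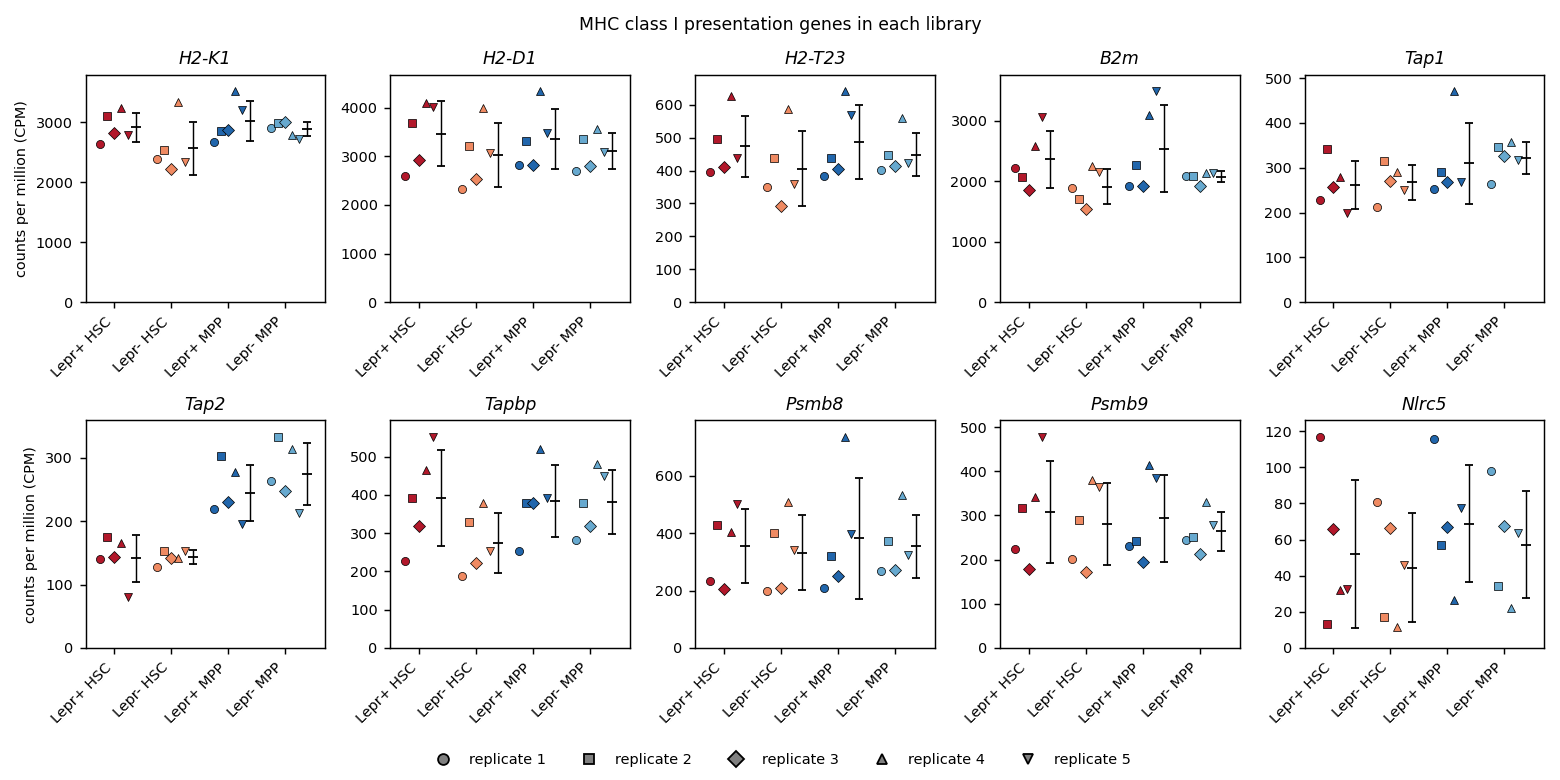
CPM of each of the 10 members in the 20 libraries, by group; symbols mark the replicate number, and the bar beside each group is the mean with its SD over 5 libraries. Tap2 is the only member whose HSC and MPP libraries do not overlap within both Lepr states, and Nlrc5 has the widest range, 11.57 to 116.6 CPM.

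The comparison of Lepr+ HSC with Lepr- HSC addresses the study's main question. No member passed an adjusted p of 0.05 in it, where 0.103% of all genes did, and 0 of the 10 had an unadjusted p under 0.05, which 6.96% of all genes had (edgeR). The members' log2 fold changes had a median of 0.19, against a median of -0.0041 over all genes tested, and ran from -0.035 for Tap1 to 0.51 for Tapbp. H2-D1, H2-T23, B2m and Tapbp were each higher in Lepr+ HSC in 5 of 5 replicate pairs, a pattern shown by 6.83% of all genes. With the replicate number as a block, 5 of the 10 members had an unadjusted p under 0.05, all with higher values in Lepr+ HSC (H2-K1, H2-D1, H2-T23, B2m and Tapbp), where 11.8% of all genes did, and none passed the adjusted threshold, which 1.02% of all genes passed.

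Tapbp encodes tapasin, which bridges the transporter and the heavy chain and edits the peptide, from the plus strand of chromosome 17 at 33915899 to 33929292 (GRCm38, ENSMUSG00000024308.15). It stood at 226.4, 393.0, 319.3, 466.0 and 550.7 CPM in replicates 1 to 5 of Lepr+ HSC, against 188.6, 329.3, 221.2, 378.5 and 254.5 CPM in Lepr- HSC. The groups overlapped, and replicate 5 gave the largest gap. The log2 fold change was 0.51 (SE 0.25, 95% interval -0.0089 to 1.03, edgeR adjusted p = 0.733), and with the block it was 0.49 (interval 0.24 to 0.75, adjusted p = 0.0659). Without Lepr+ HSC replicate 5 it was 0.36. Of the exon bases of Tapbp, 29.02% overlap other genes: Zbtb22, on the same strand, had 21.66 to 38.16 CPM in the HSC libraries, and the antisense Gm19412 had 0 counts there. Reads that fit more than 1 gene were set aside as ambiguous (5.583% to 6.73% of a library). The 0 counts therefore do not show that Gm19412 is silent, and reads over the shared bases can be lost to Tapbp.

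B2m, the invariant light chain without which heavy chains are not stably displayed, stood at 2223, 2071, 1859, 2576 and 3059 CPM in replicates 1 to 5 of Lepr+ HSC, against 1893, 1711, 1546, 2250 and 2152 CPM in Lepr- HSC. Each pair was higher in Lepr+ HSC, while the ranges overlapped. Its log2 fold change was 0.30 (SE 0.19, interval -0.099 to 0.71, adjusted p = 0.93 in edgeR). H2-D1 averaged 3464 ± 673.5 CPM in Lepr+ HSC compared with 3024 ± 654.6 CPM in Lepr- HSC (SD, n = 5 each), with a log2 fold change of 0.20 (interval -0.20 to 0.59). H2-K1 averaged 2914 ± 243.6 CPM in Lepr+ HSC compared with 2561 ± 444.4 CPM in Lepr- HSC, with a log2 fold change of 0.19 (interval -0.12 to 0.50). None of these intervals reached beyond 0.71. H2-T23 averaged 473.4 ± 93.49 CPM in Lepr+ HSC compared with 405.1 ± 113.9 CPM in Lepr- HSC, a log2 fold change of 0.22 (interval -0.19 to 0.64). Reads of these heavy chains are partly uncertain, since 9.63% of the 50-base words of H2-K1, 12.8% of those of H2-D1 and 14.5% of those of H2-T23 also occur in another gene, mostly another class I gene.

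The transporter and the immunoproteasome genes had log2 fold changes closer to 0 by Lepr status in HSC. The log2 fold change was -0.035 for Tap1 (interval -0.42 to 0.35), -0.024 for Tap2 (-0.42 to 0.37), 0.097 for Psmb8 (-0.63 to 0.82) and 0.13 for Psmb9 (-0.45 to 0.72). Nlrc5, at 52.03 ± 40.83 CPM in Lepr+ HSC compared with 44.33 ± 30.08 CPM in Lepr- HSC, had the widest interval of the members, -0.96 to 1.42. Summed over 8 erythroid and megakaryocyte markers, levels were 319.9 to 1162 CPM in Lepr+ HSC compared with 1750 to 4454 CPM in Lepr- HSC. The sum of 8 B and plasma cell markers was 51.14 to 640.6 CPM in Lepr+ HSC, highest in replicates 2 and 3, compared with 43.47 to 109.8 CPM in Lepr- HSC. Endothelial markers summed to 453.8 to 675.3 CPM in Lepr+ HSC compared with 331.2 to 557.2 CPM in Lepr- HSC. Among them Esam averaged 280.6 CPM in Lepr+ HSC compared with 220.0 CPM in Lepr- HSC, while Cdh5 averaged 0.454 and 0.0118 CPM. The sum rests largely on Esam and does not measure endothelial cell content. Stromal markers summed to 29.82 to 183.6 CPM in Lepr+ HSC compared with 15.75 to 207.4 CPM in Lepr- HSC. The part of these markers in the class I levels was not tested.

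In progenitors, 0 of the 10 members passed in Lepr+ MPP against Lepr- MPP, where 0.2% of all genes did, and 0 had an unadjusted p under 0.05, which 4.41% of all genes had (edgeR). The median log2 fold change of the members was 0.11, against 0.011 over all genes. It was -0.13 without the 3 libraries least like their group. That fit dropped replicates 4 and 5 of Lepr+ MPP, kept those of Lepr- MPP and had no block. It therefore left the replicate numbers unbalanced between the groups, and the part of this in the change of sign was not tested. B2m stood at 1912, 2266, 1925, 3092 and 3482 CPM in replicates 1 to 5 of Lepr+ MPP, against 2091, 2083, 1915, 2141 and 2128 CPM in Lepr- MPP. The 2 high values were replicates 4 and 5 of Lepr+ MPP, while the Lepr- MPP libraries lay within a narrow range. The log2 fold change was 0.29 (SE 0.19, interval -0.11 to 0.69, adjusted p = 1) and -0.022 without the 3 libraries. When 1 library or 1 replicate number was left out in turn, the value for B2m was 0.14 to 0.38. The summed level of 10 stromal markers, among them Cxcl12 and Col1a1, was 136.6, 735.3, 637.4, 790.7 and 3268 CPM in replicates 1 to 5 of Lepr+ MPP and 11.17 to 37.74 CPM in Lepr- MPP, where Adipoq and Lum were at 0. The summed level of 10 endothelial markers was 453.8 to 993.5 CPM in Lepr+ MPP compared with 313.7 to 468.5 CPM in Lepr- MPP. Among them Esam averaged 237.5 CPM in Lepr+ MPP compared with 154.1 CPM in Lepr- MPP, while Cdh5 averaged 13.82 and 0.01517 CPM. This sum does not measure endothelial cell content either. The summed level of 8 B and plasma cell markers was 83.12 to 4462 CPM in Lepr+ MPP compared with 111.8 to 278.7 CPM in Lepr- MPP. The part of these markers in the class I levels was not tested.

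Tap2 was lower in Lepr+ MPP in 5 of 5 replicate pairs, as were 6.53% of all genes, with a log2 fold change of -0.16 (interval -0.56 to 0.23). Tapbp, at 384.8 ± 94.50 CPM in Lepr+ MPP compared with 382.1 ± 84.09 CPM in Lepr- MPP (SD, n = 5 each), had a log2 fold change of 0.01 (interval -0.51 to 0.53). The difference between the Lepr contrasts, HSC minus MPP, was 0.50 for Tapbp (SE 0.35, interval -0.23 to 1.24, edgeR adjusted p = 1), the largest of the members. For the other 9 members it lay between -0.036 and 0.14. No gene of the whole table passed the threshold in this contrast (0.0% of all genes), and 3.2% of all genes and 0 of the members had an unadjusted p under 0.05; by DESeq2 19 genes passed it, none of them a member. With the block the Tapbp difference was 0.49 (interval 0.13 to 0.85, unadjusted p = 0.0106, adjusted p = 0.778), where 5.03% of all genes had an unadjusted p under 0.05.

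**Figure D2:**
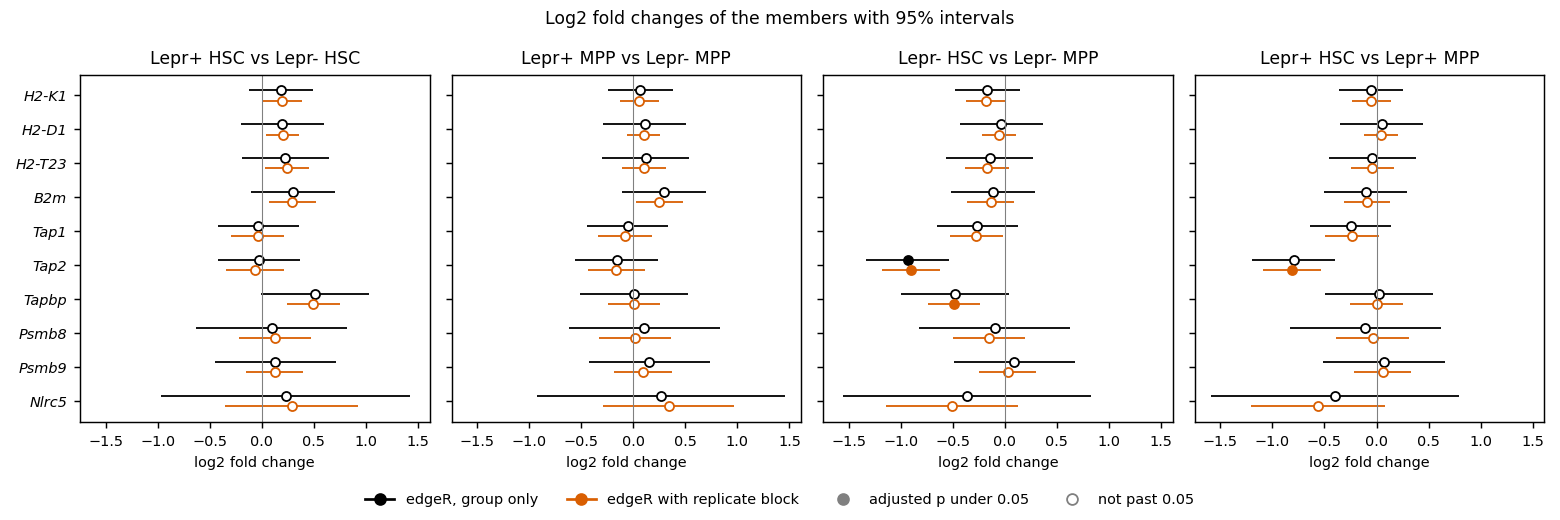
Log2 fold changes of the 10 members with 95% intervals in the 4 comparisons, from edgeR with group as the only term (black) and with the replicate number as a block (orange); filled points have an adjusted p under 0.05. The filled points are Tap2 in Lepr- HSC vs Lepr- MPP in both fits, Tapbp there with the block, and Tap2 in Lepr+ HSC vs Lepr+ MPP with the block.

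Among the 10 members, the 1 call without the block lay between stem cells and progenitors, in Tap2. This subunit pairs with the Tap1 product, and both are needed to form the peptide channel. The gene lies on the plus strand of chromosome 17 at 34203527 to 34216321 (GRCm38, ENSMUSG00000024339.12), next to Psmb8, Tap1 and Psmb9. Tap2 stood at 127.2, 153.7, 141.6, 142.5 and 152.4 CPM in replicates 1 to 5 of Lepr- HSC, against 263.3, 332.4, 247.6, 313.6 and 213.5 CPM in Lepr- MPP. All 5 Lepr- HSC libraries lay below all 5 Lepr- MPP libraries, as for 3.43% of all genes tested. The log2 fold change was -0.93 (SE 0.19, interval -1.33 to -0.53, edgeR adjusted p = 0.0081), which made Tap2 the 1 member of 10 that passed, where 2.73% of all genes passed, 1.51% as lower, and 12.3% had an unadjusted p under 0.05. Leaving out any 1 library of these groups gave -1.05 to -0.86, with adjusted p between 0.0064 and 0.0305.

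In cells with surface Lepr, Tap2 stood at 140.8, 175.0, 143.2, 166.2 and 80.1 CPM in replicates 1 to 5 of Lepr+ HSC, against 218.5, 303.2, 230.1, 277.8 and 195.5 CPM in Lepr+ MPP. The groups again did not overlap, a pattern shown by 1.02% of all genes, and the lowest value came from Lepr+ HSC replicate 5, which held 762 counts of Tap2. The log2 fold change was -0.80 (SE 0.19, interval -1.19 to -0.40, edgeR adjusted p = 0.0766). No member passed the threshold here, which 0.466% of all genes passed, and Tap2 was the 1 member with an unadjusted p under 0.05, which 7.89% of all genes had. It was lower in Lepr+ HSC in 5 of 5 replicate pairs, as were 5.68% of all genes. With the replicate block the value was -0.81 (adjusted p = 0.0046), and 1.77% of all genes passed, but without replicate 3 the blocked adjusted p was 0.0561. By DESeq2 it was -0.81 (adjusted p = 0.0039). The difference of the Lepr contrasts for Tap2 was 0.14 (interval -0.42 to 0.70), so the gap between cell types was not shown to depend on Lepr.

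Tap1, the partner subunit, did not pass in the same comparison. It averaged 267.6 ± 39.60 CPM in Lepr- HSC compared with 322.3 ± 35.94 CPM in Lepr- MPP (SD, n = 5 each), with a log2 fold change of -0.27 (interval -0.66 to 0.12, adjusted p = 0.67 in edgeR). Per kilobase of exon, the ratio of Tap2 to Tap1 was 0.705 to 0.878 in Lepr- HSC against 0.975 to 1.44 in Lepr- MPP, without overlap. It was 0.58 to 0.894 in Lepr+ HSC against 0.855 to 1.51 in Lepr+ MPP, where Lepr+ MPP replicate 4 lay within the HSC range. This ratio was read after the Tap2 result was known and carries no test. Of the exon bases of Tap2, 18.46% overlap the antisense genes Gm15821, which stood at 0 to 1.89 CPM, and Gm20496, which had 0 counts, and the libraries keep no strand. Reads over the shared bases can be set aside as ambiguous and lost to Tap2, so these low counts do not show that either antisense gene is silent.

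**Figure D3:**
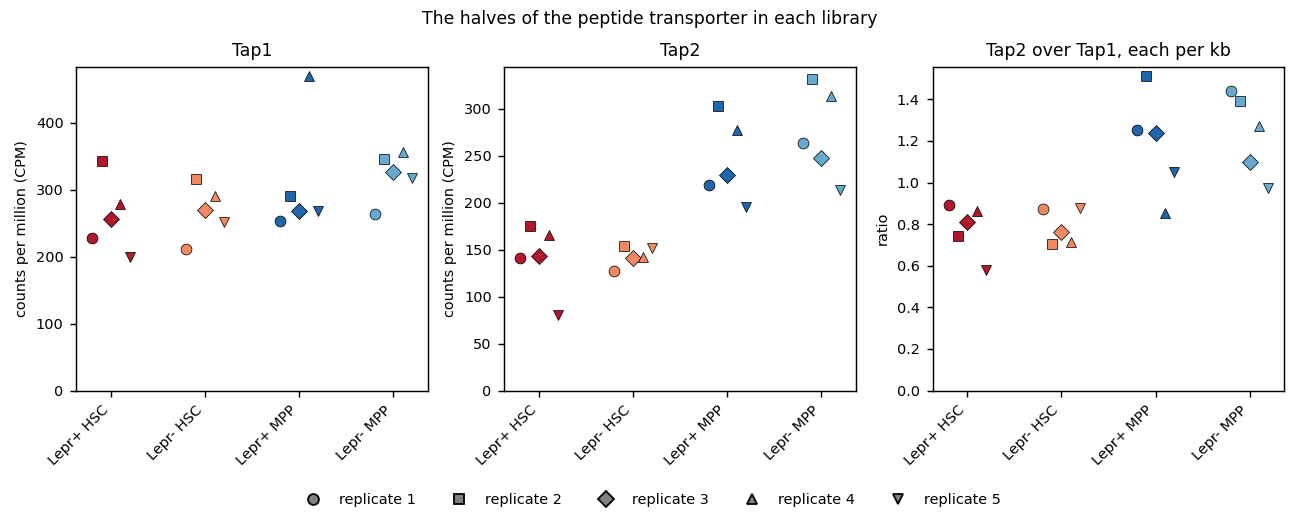
CPM of Tap1 and Tap2, and the ratio of Tap2 to Tap1 per kilobase of exon, in each library by group; symbols mark the replicate number. The Tap2 values of HSC libraries, 80.1 to 175.0 CPM, lie below those of all MPP libraries, 195.5 to 332.4 CPM, while the Tap1 values overlap.

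Tapbp was lower in Lepr- HSC than in Lepr- MPP in 5 of 5 replicate pairs, as were Tap1, Tap2 and Nlrc5 and 11.2% of all genes. It averaged 274.4 ± 78.17 CPM in Lepr- HSC compared with 382.1 ± 84.09 CPM in Lepr- MPP, with a log2 fold change of -0.48 (SE 0.25, interval -0.998 to 0.042, edgeR adjusted p = 0.474). With the replicate block it passed, at -0.49 (interval -0.74 to -0.24, adjusted p = 0.0189), where 7.5% of all genes passed. Without replicate 1, 3 or 4 the blocked adjusted p was 0.0869, 0.0859 and 0.0507. Between Lepr+ HSC and Lepr+ MPP, Tapbp had a log2 fold change of 0.023 (interval -0.50 to 0.54). The heavy and light chains, Psmb8 and Psmb9 had log2 fold changes between -0.17 and 0.091 in Lepr- HSC vs Lepr- MPP and between -0.11 and 0.07 in Lepr+ HSC vs Lepr+ MPP. Over the 10 members the median was -0.16 in the Lepr- comparison, against 0.0062 over all genes, and -0.078 in the Lepr+ comparison, against -0.02 over all genes. The erythroid and megakaryocyte markers summed to 1750 to 4454 CPM in Lepr- HSC compared with 208.6 to 920.1 CPM in Lepr- MPP. Between Lepr+ HSC and Lepr+ MPP the same markers summed to 319.9 to 1162 CPM in Lepr+ HSC compared with 77.61 to 362.2 CPM in Lepr+ MPP, and the stromal markers to 29.82 to 183.6 CPM in Lepr+ HSC compared with 136.6 to 3268 CPM in Lepr+ MPP. Of 7 dendritic cell markers, Flt3, which progenitors also express, made up most of the sum in the MPP libraries, and stood at 1.46 to 35.8 CPM in Lepr- HSC compared with 258.3 to 594.4 CPM in Lepr- MPP, and at 0.946 to 35.2 CPM in Lepr+ HSC compared with 129.5 to 334.5 CPM in Lepr+ MPP. Clec9a, a defining dendritic cell marker, averaged 1.23 CPM in Lepr- HSC compared with 0.023 CPM in Lepr- MPP. The part of these markers in the Tap2 and Tapbp values was not tested.

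Most members varied more between replicate numbers than between groups. Of the sum of squares of log2 CPM, the replicate number took a median of 67.1% in the members and 37.1% in all genes tested, and the group took 18.2% and 15.7%. Tap2 was the exception, with 73.7% for the group and 16.7% for the replicate number. The replicate number took 83.6% in Psmb9, 82.5% in Psmb8, 81.1% in H2-D1 and 73.3% in Nlrc5. Psmb8, the immunoproteasome subunit that replaces Psmb5, was lowest in replicates 1 and 3 in each group: it stood at 234.7, 430.4, 204.2, 403.6 and 501.9 CPM in replicates 1 to 5 of Lepr+ HSC, and at 268.1, 374.5, 271.9, 534.1 and 325.8 CPM in Lepr- MPP. Nlrc5 ran the other way. It stood at 116.6, 13.0, 65.89, 32.02 and 32.59 CPM in replicates 1 to 5 of Lepr+ HSC, at 80.67, 17.28, 66.49, 11.57 and 45.65 CPM in Lepr- HSC, at 115.5, 57.05, 66.86, 26.37 and 77.62 CPM in Lepr+ MPP and at 97.74, 34.54, 67.43, 22.38 and 63.35 CPM in Lepr- MPP. Replicates 2 and 4, whose file names carry a July date, were below replicates 1, 3 and 5, which carry a June date, in each of the 4 groups (11.57 to 57.05 CPM in 8 July libraries and 32.59 to 116.6 CPM in 12 June libraries).

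These levels moved with the number of genes detected in a library. As deviations from the group means over the 20 libraries, the number of genes with a count correlated with Psmb8 at r = -0.954, with H2-D1 at -0.937, with Nlrc5 at 0.81 and with Tap2 at -0.099. The points share libraries and mouse pools, and the part of detection or depth in these levels was not tested. Among the 45 pairs of members, 33 had a positive correlation of such deviations and the median was 0.553. H2-D1 and Psmb8 correlated most closely (0.947), and H2-D1 and Nlrc5 were the other way round (-0.871). Among the genes whose deviations were most like the members' mean were Rpl19 (r = 0.977), Rpl7a, Rpl11 and Rpl28, which encode ribosomal proteins, the pseudogene Rpl19-ps11, and Fkbp2 and Eif3k (0.959).

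**Figure D4:**
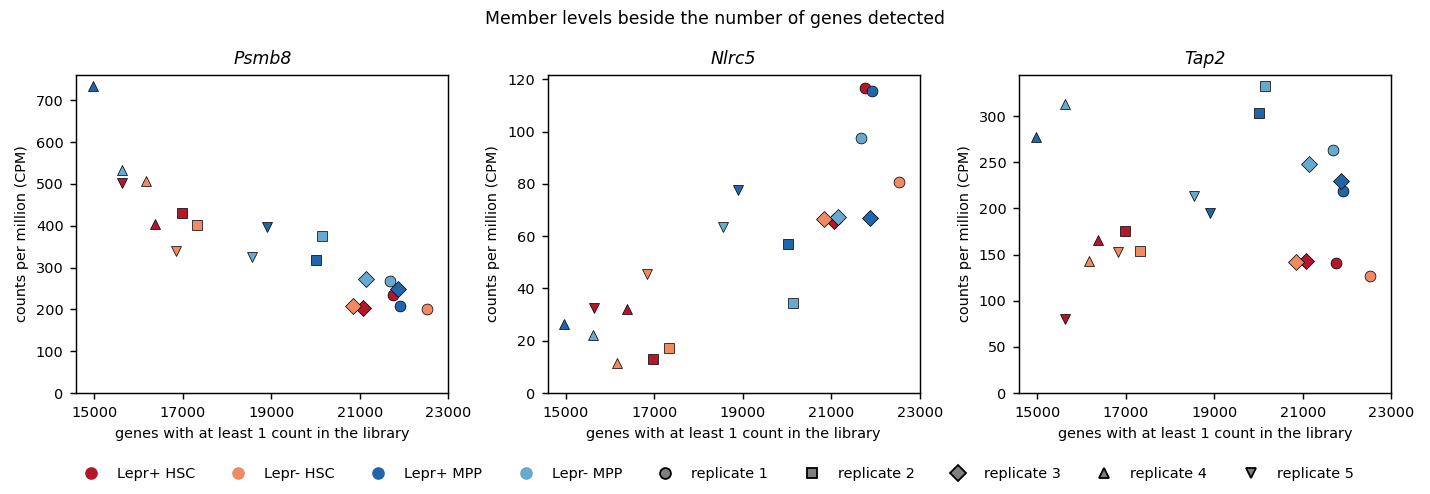
CPM of Psmb8, Nlrc5 and Tap2 against the number of genes with at least 1 count in the library; colours mark the groups and symbols the replicate numbers. Psmb8 falls and Nlrc5 climbs along the axis from 14972 to 22524 genes, while the HSC libraries lie below the MPP libraries in Tap2.

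The immunoproteasome genes were also read relative to the constitutive subunits that they replace. The ratio of Psmb8 to Psmb5 per kilobase was 0.9, 0.857, 0.805, 0.781 and 0.666 in replicates 1 to 5 of Lepr+ HSC, against 0.682, 0.744, 0.561, 0.568 and 0.466 in Lepr- HSC. Each pair was higher in Lepr+ HSC, and the ranges overlapped. The ratio of Psmb9 to Psmb6 averaged 0.308 ± 0.0428 in Lepr+ HSC and 0.246 ± 0.0372 in Lepr- HSC (SD, n = 5 each), also higher in each pair. In progenitors, Psmb8 to Psmb5 averaged 0.927 ± 0.19 in Lepr+ MPP and 0.881 ± 0.144 in Lepr- MPP. The ratios were set up after the fits were known and carry no test. All 14 genes of the standard proteasome core had negative log2 fold changes in Lepr+ HSC vs Lepr- HSC (median -0.22) and positive ones in Lepr- HSC vs Lepr- MPP (median 0.46). None of the 14 passed in either comparison, and both share the Lepr- HSC libraries; with the block, Psma6, Psma7 and Psmb3 passed as higher in Lepr- HSC than in Lepr- MPP, where 7.5% of all genes passed in either direction.

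Among the regulators of class I transcription, 1 of 17 listed genes passed in Lepr+ HSC vs Lepr- HSC, as higher, where 0.103% of all genes passed. In Lepr- HSC vs Lepr- MPP 2 of 17 passed, as lower, where 1.51% of all genes did. Irf9, the DNA-binding part of the complex through which type I interferon acts, averaged 147.4 ± 25.56 CPM in Lepr+ HSC compared with 80.62 ± 17.03 CPM in Lepr- HSC (SD, n = 5 each). All Lepr+ HSC libraries lay above all Lepr- HSC libraries, as for 0.999% of all genes. Its log2 fold change was 0.87 (SE 0.17, edgeR adjusted p = 0.0411). The call was lost without Lepr+ HSC replicate 1, 3, 4 or 5 or Lepr- HSC replicate 2, 3 or 5, each left out alone, with adjusted p from 0.0573 to 0.175. Irf1, an interferon-induced activator that binds class I promoters, averaged 109.5 ± 17.59 CPM in Lepr+ HSC compared with 74.08 ± 10.28 CPM in Lepr- HSC (log2 fold change 0.56, adjusted p = 0.326). In Lepr- HSC vs Lepr- MPP, Irf9 and Irf1 had log2 fold changes of -0.94 (adjusted p = 0.0023) and -0.93 (0.0048). Irf8, an interferon-inducible factor of myeloid cells, had 1.17 in Lepr+ HSC vs Lepr- HSC (adjusted p = 0.641). In Lepr+ MPP vs Lepr- MPP, 0 of the 17 passed, and the difference of the Lepr contrasts for Irf9 was 0.85 (unadjusted p = 0.0017, adjusted p = 0.886).

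Of 7 interferon receptor and Jak kinase genes, 3 were lower in Lepr- HSC than in Lepr- MPP, as were 1.51% of all genes: Ifngr1 (log2 fold change -0.90, edgeR adjusted p = 0.0141), Ifngr2 (-1.34, 0.0097) and Ifnar2 (-0.99, 0.0021). The median of the 7 was -0.90. With the replicate block Ifnar1 also passed (-0.98, edgeR adjusted p = 0.0105), where 7.5% of all genes passed. In Lepr+ HSC vs Lepr+ MPP 0 of the 7 passed, with a median of -0.49 and a smallest adjusted p of 0.439. In Lepr+ HSC vs Lepr- HSC none passed, with 0.84 for Ifngr2, 0.45 for Ifnar2 and 0.41 for Ifngr1 (adjusted p between 0.379 and 0.729). No gene of this list passed in Lepr+ MPP vs Lepr- MPP.

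Among 6 tested class I-like molecules, Procr passed in Lepr+ HSC vs Lepr- HSC, where 0.103% of all genes passed. It encodes the endothelial protein C receptor, has a class I-like fold and is used as a stem cell marker. It averaged 99.20 ± 27.27 CPM in Lepr+ HSC compared with 30.90 ± 11.03 CPM in Lepr- HSC (SD, n = 5 each), with a log2 fold change of 1.68 (edgeR adjusted p = 0.012). Leaving out Lepr- HSC replicate 2, 3 or 5 or Lepr+ HSC replicate 5, each alone, gave adjusted p between 0.0509 and 0.0634. With only the compared groups in the fit, or in June or July libraries alone, no gene passed in Lepr+ HSC vs Lepr- HSC. Fcgrt, the neonatal Fc receptor, had 0.85 in Lepr+ HSC vs Lepr- HSC (adjusted p = 0.513) and 1.41 in Lepr+ MPP vs Lepr- MPP (adjusted p = 0.104, and 0.0042 by DESeq2). Procr had 1.03 in Lepr+ MPP vs Lepr- MPP (adjusted p = 0.136, and 0.0112 by DESeq2). Hfe, the iron-regulating class I-like protein, had 1.78 in Lepr+ HSC vs Lepr- HSC (adjusted p = 0.722). In Lepr- HSC vs Lepr- MPP none of the 6 passed. With the replicate block Cd1d1, which presents lipids, did (-1.36, edgeR adjusted p = 0.0019), where 7.5% of all genes passed.

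The other listed genes of the pathway gave no call in either Lepr comparison, with or without the block. Of 8 tested further heavy chains none passed, and H2-M3, which presents formylated peptides, had the smallest p in Lepr+ HSC vs Lepr- HSC with a log2 fold change of 0.73 (adjusted p = 0.457). With the replicate block H2-Q7, a gene of the nonclassical Qa-2 molecule, passed as higher in Lepr- HSC than in Lepr- MPP (0.52, edgeR adjusted p = 0.007). In that fit 7.5% of all genes passed. H2-Q6, another listed heavy chain, went the other way, at 307.1 CPM on average in Lepr- HSC compared with 379.7 CPM in Lepr- MPP. Multi-mapped reads are left out, so the levels of such near copies are uncertain. Of 9 genes of peptide loading and the endoplasmic reticulum none passed, and Tapbpl, the tapasin-related editor, had 0.63 (adjusted p = 0.571). None of the 4 further genes of the immunoproteasome and the PA28 regulator passed, with log2 fold changes in Lepr+ HSC vs Lepr- HSC from -0.12 for Pomp to 0.16 for Psme1, and in Lepr+ MPP vs Lepr- MPP from 0.037 for Psme1 to 0.27 for Pomp.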

How the data were processed

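RNA was measured in 20 libraries of sorted mouse bone marrow cells, 5 in each of 4 groups. The authors deposited whole-number read counts per gene, 1 file per library with 5 closing lines for reads given to no gene (21.429% to 38.664% of a library), which were left out of library sizes. Per the submitters' processing notes, reads were processed with STAR 2.7.1a, HTSeq 0.11.2, cutadapt 2.1, FastQC 0.11.8 and a DESeq2 of no stated version on GRCm38. Per the labels, cDNA came from the SMART-Seq v4 kit and libraries from Nextera XT without strand. The counting mode is not given in the sources used here. Multi-mapped reads are among the closing lines, so genes with near copies can be undercounted.

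Symbols and exon lengths came from GENCODE M21, which matched 55480 identifiers with their version left out. Tests were edgeR 4.0.16 quasi-likelihood F tests (R 4.3.3; robust fit on group alone; TMM; filterByExpr at a count of 10 and a total of 15), two-sided, adjusted by Benjamini-Hochberg over 16509 genes at 0.05. Values are CPM scaled by TMM, with SD over 5 libraries, and log2 CPM with a prior count of 2 for correlations. The fit was run on simulated counts with known changes. Their spread was smaller than that of these data and held no replicate effect, so the run does not measure power here. DESeq2 1.42.0 was an alternative, as were DESeq2 size factors, no filter, fits to the compared groups only, each library left out, each replicate number left out, June or July libraries only, and leaving out 3 libraries.

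The study's design text gives 2 mice for each replicate, and libraries of 1 number carry the same date in their file names in all 4 groups, so the numbers were taken to pair the libraries. That the 4 libraries came from the same mice is a reading of that text. Deviations from the group means correlated at a median of 0.264 in 30 same-number pairs (range -0.0647 to 0.562) and at -0.0857 in 120 other pairs, and 15 of 20 libraries lay nearest their own number. The members and gene lists were chosen with earlier results of these data known. All 10 members are named; of each pathway list, up to 3 genes by smallest p in each Lepr comparison; likeness genes are the 8 closest with a mean of at least 5 CPM, of which 1 is not reported here, nor is 1 of the motifs searched. The genes passing in Lepr- HSC vs Lepr- MPP, and Slamf1, Flt3, Hlf and Ly6a, were named after their values were seen. Motifs were searched on both strands.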

Additional observations from a re-analysis of the deposited data

Results flagged for a closer look

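In 2 of the 40 combinations of member and group, the lowest or highest library lay far from the rest of its group, and about 1 in 20 groups is flagged by chance. B2m in Lepr- MPP replicate 3 stood at 1915 CPM, below the other libraries of the group at 2083 to 2141 CPM. Tap1 in Lepr+ MPP replicate 4 stood at 470.4 CPM, above the others at 253.5 to 290.4 CPM. That library was also the least like its group and had the fewest genes detected, and the part of either in its Tap1 value was not tested.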

How the results depend on the processing

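Tap2 was lower in Lepr- HSC than in Lepr- MPP under each alternative, at -1.16 to -0.79, and passed except in June libraries only (adjusted p = 0.274) and July libraries only (0.365), where few libraries remain. The number of members past the threshold in Lepr- HSC vs Lepr- MPP was 1. It was 2 with the replicate block, 0 in June libraries only (81 of 17713 genes passed), 0 in July libraries only (0 of 15464 genes passed), and 1 to 2 when a library or a replicate number was left out. In Lepr+ HSC vs Lepr+ MPP it was 0, and 1 by DESeq2, 1 with the replicate block, and 0 to 1 when leaving out libraries or numbers. The replicate block changed no other member's call. In the 2 Lepr comparisons and their difference, 0 members passed under each alternative. Over all genes the block called 169 instead of 17 in Lepr+ HSC vs Lepr- HSC, 17 instead of 33 in Lepr+ MPP vs Lepr- MPP, 1238 instead of 451 in Lepr- HSC vs Lepr- MPP and 293 instead of 77 in Lepr+ HSC vs Lepr+ MPP, and the DESeq2 test called 181, 213, 844 and 343. Irf9 in Lepr+ HSC vs Lepr- HSC also missed the threshold without the filter (adjusted p = 0.106), with only these groups in the fit (0.307), in either month alone and without the 3 libraries (0.0575).

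Signs turned for members that had not passed, and the cause was not tested. Without the 3 libraries least like their group, log2 fold changes became 0.049 for Tap1, 0.13 for Tap2, -0.057 for Psmb8 and -0.078 for Psmb9 in Lepr+ HSC vs Lepr- HSC. In Lepr+ MPP vs Lepr- MPP they became -0.040 for H2-K1, -0.054 for H2-D1, -0.13 for H2-T23, -0.022 for B2m, -0.18 for Tapbp, -0.45 for Psmb8 and -0.24 for Psmb9. In Lepr+ HSC vs Lepr+ MPP they became 0.072 for H2-K1, 0.23 for H2-T23, 0.097 for B2m, 0.026 for Tap1 and 0.29 for Psmb8, with a median over the members of 0.084. The difference of the Lepr contrasts became 0.39 for Psmb8 and 0.16 for Psmb9.

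In July libraries only, values were 0.073 for Tap1, 0.24 for Tap2 and -0.087 for Psmb8 in Lepr+ HSC vs Lepr- HSC, 0.12 for Tap1 in Lepr+ MPP vs Lepr- MPP, 0.017 for H2-D1 in Lepr- HSC vs Lepr- MPP, 0.051 for H2-T23 and -0.071 for Tapbp in Lepr+ HSC vs Lepr+ MPP, and -0.076 for B2m, -0.042 for Tap1 and 0.12 for Nlrc5 in the difference. In June libraries only they were -0.00041 for H2-K1, -0.052 for Tapbp and -0.038 for Psmb8 in Lepr+ MPP vs Lepr- MPP, 0.16 for Psmb8 in Lepr+ HSC vs Lepr+ MPP, and -0.026 for Tap2, 0.36 for Psmb8 and 0.14 for Psmb9 in the difference. Without the filter, Tapbp was -0.0074 in Lepr+ MPP vs Lepr- MPP, and the difference was 0.019 for Psmb8 and 0.0027 for Psmb9. With the replicate block the difference was 0.11 for Psmb8 and 0.034 for Psmb9. For B2m it was -0.0042 with DESeq2 size factors and -0.0042 by DESeq2.

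When libraries or replicate numbers were left out in turn, values in Lepr+ HSC vs Lepr- HSC spanned -0.059 to 0.30 for Psmb8, -0.15 to 0.047 for Tap1, -0.14 to 0.15 for Tap2, -0.31 to 0.56 for Nlrc5 and -0.080 to 0.28 for Psmb9. In Lepr+ MPP vs Lepr- MPP they spanned -0.12 to 0.13 for Tapbp, -0.25 to 0.0071 for Tap1, -0.0047 to 0.55 for Nlrc5, -0.27 to 0.30 for Psmb8 and -0.0043 to 0.27 for Psmb9. In Lepr- HSC vs Lepr- MPP they spanned -0.16 to 0.043 for H2-D1, -0.30 to 0.095 for Psmb8 and -0.072 to 0.22 for Psmb9. In Lepr+ HSC vs Lepr+ MPP they spanned -0.16 to 0.075 for H2-T23, -0.26 to 0.27 for Psmb8, -0.020 to 0.16 for H2-D1, -0.15 to 0.17 for Tapbp, -0.14 to 0.23 for Psmb9, -0.093 to 0.0082 for H2-K1 and -0.22 to 0.036 for B2m. The difference of the Lepr contrasts spanned -0.094 to 0.22 for Tap1, -0.57 to 0.30 for Nlrc5, -0.10 to 0.15 for B2m, -0.20 to 0.37 for Psmb8, -0.23 to 0.16 for Psmb9 and -0.013 to 0.28 for H2-T23.

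Nlrc5 had 135 to 3540 counts per library and the widest interval of the members in each comparison. Its SE in Lepr+ HSC vs Lepr- HSC was 0.57 on group alone and 0.30 with the replicate block.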
